A study of Homo sapiens with 12 samples.

Results

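Of 187088 accessible regions found in G401 cells, 13634 had a peak in all 6 libraries with induced SMARCB1 and in 0 of the 6 libraries with induced GFP, and are called gained here. This call held for 7.29% of all regions. From them, 4084 regions (29.95% of the gained regions) were kept because they lay more than 100 kb, edge to edge, from the nearest region with a peak in all 12 libraries on the same chromosome. They are called remote gained regions, the other 9550 are called near gained regions, and the 18114 regions found in all 12 libraries are called constitutive. Presence in the peak lists chose the members, so their presence with SMARCB1 and absence with GFP describe the choice and were not tested.

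ATAC-seq marks open DNA by the insertions of a transposase, and the data were lists of peaks called from nucleosome-free fragments in each library. All 4 groups share the G401 line, grown from a rhabdoid tumour and labelled with the genotype SMARCB1(-/-). Every sample received doxycycline for 24 h, which induced GFP, as the control, or SMARCB1, together with the vehicle DMSO or the BRD9 degrader dBRD9-A. Each of the 4 groups, GFP DMSO, GFP dBRD9-A, SMARCB1 DMSO and SMARCB1 dBRD9-A, had 3 libraries. The promoter behind the induction, the number of clones and the origin of replicates from separate cultures are not given in the sources used here, so p-values measure the spread between these libraries. Markers of the cell type were not assessed, because no gene was assigned to a region.

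SWI/SNF complexes use ATP to move or evict nucleosomes and so open DNA to transcription factors. SMARCB1 is a core subunit of the canonical BAF and PBAF forms, whereas BRD9 marks another form, ncBAF, which has no SMARCB1. Loss of SMARCB1 defines most rhabdoid tumours, and its return is known to restore open chromatin at many enhancers, which can act over long distances. Regions open in all conditions are often promoters and insulator sites. Stretches without them include gene deserts, where remote enhancers of developmental genes can lie.

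The lists held from 33428 to 96572 peaks, with 38897 ± 6564 in GFP and 84803 ± 9280 in SMARCB1 libraries (SD, n = 6 each). Read totals were not used here, and the background pileup, the number of fragments expected at a position by chance, stood in for depth. GFP dBRD9-A replicate 2 had the lowest value, 0.0383, and SMARCB1 dBRD9-A replicate 3 the highest, 0.111. GFP libraries averaged 0.0517 ± 0.0171 and SMARCB1 libraries 0.0827 ± 0.0217 (SD, n = 6 each), so depth moved with the induction, and its part in the choice of members was not tested. SMARCB1 dBRD9-A replicate 2 was the shallowest SMARCB1 library, at 0.0487, and had the shortest SMARCB1 list.

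The remote gained regions spread over wide stretches that have no constitutive region. Distances to the nearest constitutive region ran from 100039 bp to 4163636 bp, with a median of 193025 bp. Between 200 and 500 kb lay 1404 members, between 500 and 1000 kb 391, and beyond 1000 kb 145. At the limit itself, the first members inside were on chromosome 3 (72395786 to 72396052, distance 100039 bp, folds from 4.41 to 7.72) and chromosome 11 (12595317 to 12595558, 100070 bp, folds from 7.88 to 16.7). Gained regions just outside were on chromosome 11 (5301850 to 5302111, 99993 bp, folds from 4.72 to 18.0) and chromosome 6 (158077593 to 158077798, 99992 bp, folds from 2.80 to 7.65). Fold is the enrichment of the summit over the background as the authors' peak caller gave it, and coordinates are 1-based in hg19.

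Neighbouring constitutive regions were separated by more than 200 kb at 2755 places, and 1373 of these gaps held at least 1 member. The far parts of all gaps, those over 100 kb from either end, summed to 1659 Mb, or 56.4% of the 2941 Mb between constitutive regions. Centromeres and other stretches in which no peak was called are included in these sums. Remote gained regions numbered 2.46 per Mb of the far parts, against 7.45 near gained regions per Mb elsewhere. Members were unevenly shared among gaps: 583 gaps held 1 member, and 268 gaps held 5 or more, which made up 52.0% of the members.

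The gap with most members lay on chromosome 3, from 172468627 to 176532171. It was 4.06 Mb long and held 28 members, whose mean fold percentile within the lists ran from 24.6 to 93.8. GFP DMSO libraries had 8, 5 and 4 peaks in this gap and GFP dBRD9-A libraries 0, 5 and 8, in replicates 1, 2 and 3. SMARCB1 DMSO libraries had 87, 114 and 98, and SMARCB1 dBRD9-A libraries 106, 70 and 116. The groups of the 2 inductions did not overlap, and those of the 2 treatments did. These gaps were picked by their members, so the difference between inductions follows in part from the choice.

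A gap of 2.82 Mb on chromosome 7, from 83278543 to 86099112, held 26 members with a median spacing of 16459 bp. GFP libraries had from 2 to 9 peaks there (median 4) and SMARCB1 libraries from 67 to 103 (median 90.5). Another gap, of 2.93 Mb on chromosome 5 from 103982434 to 106907831, held 22 members. GFP libraries had from 1 to 7 peaks in it (median 3.5) and SMARCB1 libraries from 63 to 88 (median 73.5). In all 3 gaps most regions found with SMARCB1 were not members: 213 of 229 regions on chromosome 3, 181 of 195 on chromosome 7 and 161 of 172 on chromosome 5 had no GFP peak, but most of them lacked a peak in at least 1 SMARCB1 library.

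**Figure D1:**
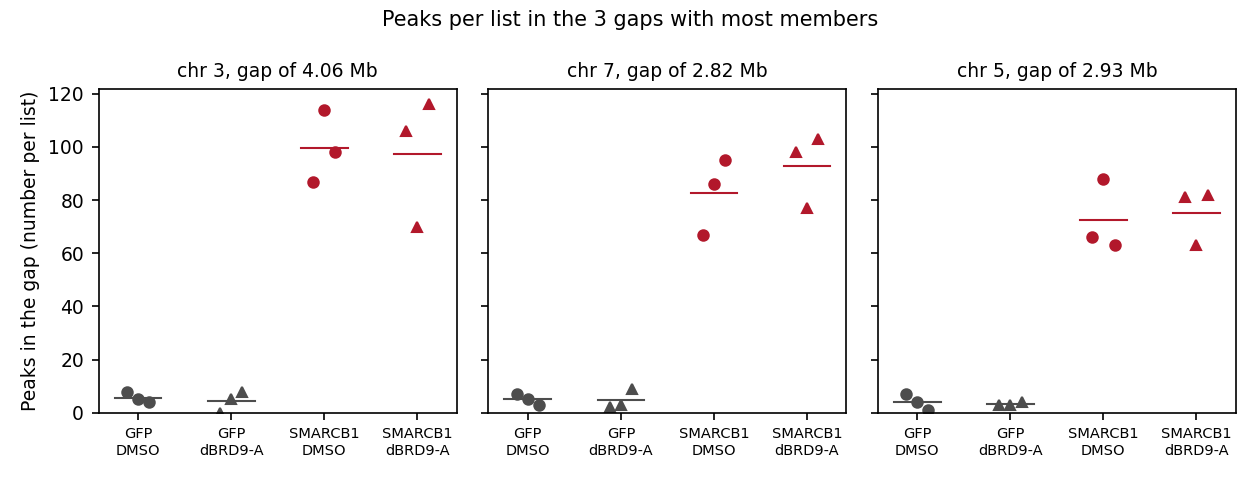
Number of peaks per list (vertical axis) in the 3 gaps between constitutive regions that hold most remote gained regions, for the 4 groups; each point is 1 library and each line the mean of 3. GFP libraries stay between 0 and 9 peaks in each gap, and SMARCB1 libraries between 63 and 116.

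Members also lay close to other gained regions, as near gained regions did. The nearest gained region was at a median of 34577 bp for members and 29964 bp for near gained regions. Another member was within 100 kb for 2793 of 4084 (68.4%) and within 20 kb for 1419 (34.7%). At the other end, 1291 members (31.6%) had no other member within 100 kb. Few stood in otherwise empty DNA, as 18 members (0.441%) had no region of any class within 100 kb, and the median was 16 such regions.

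Distance from constitutive regions did not mean an absence of all GFP peaks nearby. The nearest peak of any GFP list was at a median of 32080 bp, and 1514 members (37.1%) had one within 20 kb. For 684 members (16.7%) no GFP list had a peak within 100 kb. A region found in all 6 GFP lists, but missing from at least 1 SMARCB1 list, lay within 100 kb of 449 members (10.99%).

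Chromosomes differed widely in the share of their gained regions that was remote. The median over 24 chromosomes was 32.0%. Chromosome 19 had 15 of 251 (5.98%), chromosome 22 had 29 of 256 (11.3%) and chromosome 17 had 56 of 454 (12.3%). The share reached 38.8% on chromosome 18 (128 of 330), 41.9% on chromosome 13 (155 of 370), 52.7% on chromosome X (87 of 165) and 73.7% on chromosome Y (14 of 19). Constitutive regions numbered 1381 on chromosome 19, 341 on chromosome 13, 241 on chromosome 18 and 8 on chromosome Y, while chromosome 1, with 1924, had 276 members (21.7% of its gained regions). These counts are not scaled by chromosome length, and a low count did not always go with a high share. Chromosome 21 had 185 constitutive regions and a share of 25.2%. Chromosome 2 held most members, 450, followed by chromosome 3 with 359 and chromosome 5 with 307.

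The share of remote regions was next set beside that of other presence classes, as a description. Among regions seen with SMARCB1 and in 0 GFP lists it was 32.9% for those in 1 SMARCB1 list and between 29.4% and 31.0% for those in 2 to 5 lists, close to the 29.95% of those in all 6. Among regions in all 6 SMARCB1 lists and in 1 to 5 GFP lists it was lower, between 14.5% and 17.5%. Of the 116 regions lost with SMARCB1, found in 6 of 6 GFP and 0 of 6 SMARCB1 lists, 24 (20.7%) were remote.

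In terms of whole lists, 21.1% ± 1.03 of the peaks of SMARCB1 libraries and 9.94% ± 1.77 of those of GFP libraries were more than 100 kb from a constitutive region (SD, n = 6 each). The lowest SMARCB1 library, at 19.5%, exceeded the highest GFP library, at 12.6%. Each whole list has peaks in all 18114 constitutive regions, and these peaks count as within the limit. They make up a larger part of the shorter GFP lists, and their part in the difference was not tested. With the 33428 peaks of lowest p from each list, the shares were 11.98% ± 0.327 and 8.05% ± 0.614 (SD, n = 6 each), and the groups again did not overlap. The contrast of the inductions was used in choosing the members, so no test is given.

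Within either induction the treatments differed in this share by less than the spread between libraries. GFP DMSO libraries had 9.81% ± 1.65 and GFP dBRD9-A libraries 10.1% ± 2.25, SMARCB1 DMSO libraries 21.1% ± 0.771 and SMARCB1 dBRD9-A libraries 21.1% ± 1.44 (SD, n = 3 each). Averaged over the inductions the difference of dBRD9-A from DMSO was 0.130 percentage points (two-sided exact permutation within inductions, 400 arrangements, p = 0.88; adjusted p = 1 over the 8 tests of the library measures). By replicate number it was −3.44, 0.114 and 4.14 points in GFP and 1.27, −2.42 and 1.12 points in SMARCB1 libraries. The difference between the 2 inductions in this effect was −0.280 points (exact permutation p = 0.87).

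How strong the remote gained regions were was read from the fold, ranked within each list so that 100 is the highest peak. The medians were 61.5, 65.2 and 64.2 in SMARCB1 DMSO replicates 1, 2 and 3, and 66.6, 55.2 and 67.4 in SMARCB1 dBRD9-A replicates 1, 2 and 3. The shallowest SMARCB1 library was the lowest of the 6, and the other 5 lay between 61.5 and 67.4. Behind these medians were 6 to 10 fragments at the summit. In at least 1 SMARCB1 list 49.0% of the members had under 5 fragments at the summit, compared with 38.3% of near gained and 8.13% of constitutive regions.

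Remote gained regions had a lower median than near gained regions in each SMARCB1 library, by a few percentiles, and the difference missed the threshold of 0.05 after adjustment. The median percentile was 63.4 ± 4.49 for the remote and 65.6 ± 4.92 for the near regions (SD, n = 6), and the paired difference was −2.22 ± 0.783, between −3.25 and −1.38. In a two-sided exact sign-flip permutation test over the 6 libraries p was 0.0313, the smallest 6 libraries allow, and the adjusted p over the 8 library tests (Benjamini-Hochberg) was 0.0625. This test treats the 6 libraries as independent, as do the sign-flip tests over 6 libraries below. Same-numbered SMARCB1 libraries were taken to be paired, and 3 pairs cannot give a sign-flip p below 0.25. Restricting the lists to −log10 q from 5 upward gave a difference of −0.628 (exact p = 0.156), and with presence counted at 50% cover it was −0.301 (exact p = 0.125). With a distance limit of 200 kb it was larger, −3.72 (exact p = 0.0313). Constitutive regions had a median percentile of 84.8 ± 1.35 (SD, n = 6) and exceeded the remote regions in all 6 libraries, with remote minus constitutive differences from −28.0 to −18.1. Constitutive regions also had to be found in all GFP lists, whose background pileup was lower on average but overlapped that of SMARCB1 libraries. The part of this in their height was not tested.

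**Figure D2:**
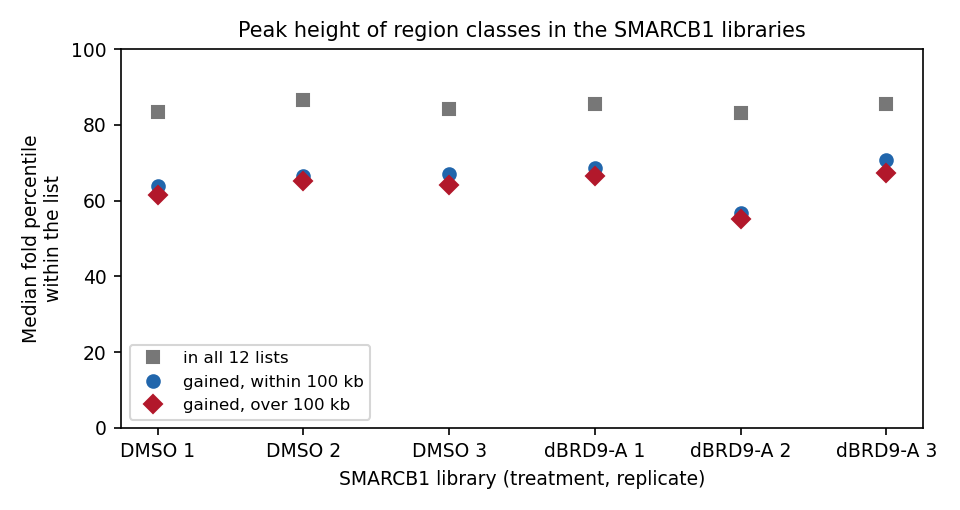
Median fold percentile within the list (vertical axis, 0 to 100) of constitutive, near gained and remote gained regions in the 6 SMARCB1 libraries (horizontal axis). Remote gained regions lie between 55.2 and 67.4, each time just below the near gained regions and well below the constitutive ones.

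Peaks of remote gained regions were a few bp wider than those of near ones, which also missed the threshold after adjustment. Their median width was 189, 198 and 196 bp in SMARCB1 DMSO and 202, 165 and 201 bp in SMARCB1 dBRD9-A replicates 1, 2 and 3. They exceeded near gained regions by 5.83 ± 2.32 bp (SD, n = 6), wider in 6 of 6 libraries (exact sign-flip permutation p = 0.0313, adjusted p = 0.0625). With a limit of 200 kb the difference was 4 bp (exact p = 0.0625).

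The position of the summit was compared between libraries, within regions that the choice already required to overlap in all 6 lists. The distance of a summit from the median summit of the other 5 SMARCB1 libraries had a median between 15 and 18 bp for remote and between 14 and 17 bp for near gained regions. It was larger for the remote regions by 1.5 ± 0.548 bp (SD, n = 6), in 6 of 6 libraries (exact sign-flip permutation p = 0.0313, adjusted p = 0.0625). Under the stricter q limit the difference was 0.833 bp (exact p = 0.125), and with a limit of 200 kb it was 2.33 bp (exact p = 0.0313). In 93.1% of the remote regions each SMARCB1 library had exactly 1 peak.

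Height was nearly level with distance up to 500 kb and lower beyond it. The median percentile averaged 64.8 ± 4.56 at 100 to 200 kb, 63.6 ± 4.56 at 200 to 500 kb, 56.6 ± 4.91 at 500 to 1000 kb and 54.6 ± 5.93 beyond 1000 kb (SD, n = 6 libraries). In all 6 libraries members beyond 500 kb were lower than those at 100 to 200 kb. Without chromosomes X and Y, which held 1.73% of the members at 100 to 200 kb and 7.59% of those beyond 1000 kb, the averages were 64.9, 63.7, 56.7 and 54.6. The split by distance was made after the data had been seen and is given without a test.

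**Figure D3:**
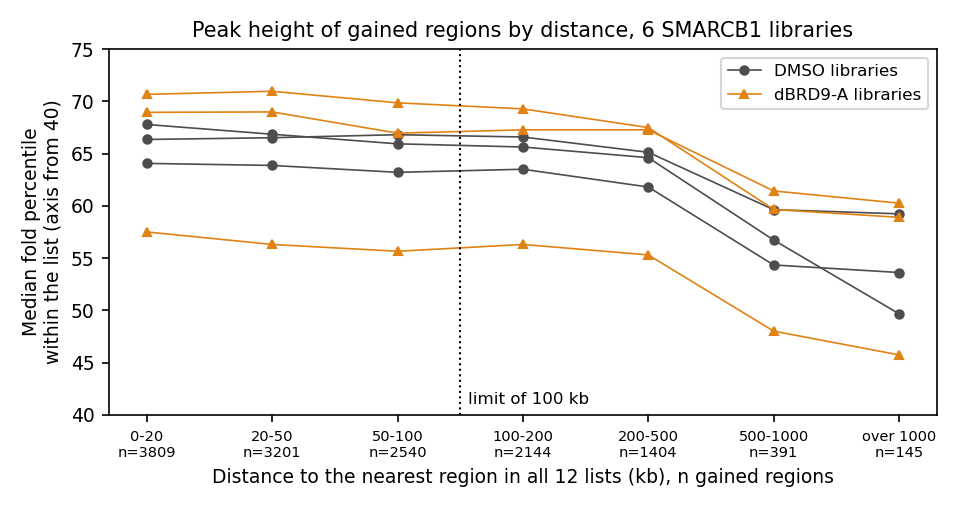
Median fold percentile of gained regions in each of the 6 SMARCB1 libraries (vertical axis, starting at 40) by distance to the nearest constitutive region in kb (horizontal axis, with the number of gained regions). Remote gained regions are to the right of the dotted line, and their means go from 64.8 at 100 to 200 kb to 54.6 beyond 1000 kb.

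Members varied widely in strength. The mean percentile over the 6 SMARCB1 lists ran from 14.3 to 99.5 with a median of 59.8, and 174 members (4.26%) exceeded 90 while 1300 (31.8%) were below 50. Only 68 members were above the 90th percentile in each of the 6 lists. Within a member, the highest fold over the 6 libraries was a median of 2.07 times the lowest, against 2.04 for near gained and 1.67 for constitutive regions. SMARCB1 dBRD9-A replicate 2, the shallowest of the 6, gave the lowest value for 39.5% of the members.

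The strongest member was on chromosome 22, from 24129357 to 24129451. Its folds were 37.4, 31.1 and 40.3 in SMARCB1 DMSO and 31.8, 17.4 and 38.0 in SMARCB1 dBRD9-A replicates 1, 2 and 3, so that 1 library, the shallowest, stood below the rest. It was 95 bp wide, and the 6 libraries gave it the same edges, which held for 1 of the 4084 remote and 0 of the 9550 near gained regions. The other 2 members within 100 kb lay at 24133941 to 24134081, with folds from 5.86 to 9.92, and at 24143125 to 24143262, with folds from 4.76 to 13.3. These 3 regions span 13906 bp, and the nearest GFP peak was 127558 bp or more away. SMARCB1, the induced gene and the one lost in this line, is on chromosome 22. Whether these 3 regions lie in that gene was not looked up, and a part of the induced construct in these peaks was not tested. Their folds are given with that limit and are not to be read as open chromatin alone.

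The second member, on chromosome 1 from 204592495 to 204592908, was 414 bp wide and had no other member within 100 kb. Its folds were 26.8, 25.5 and 26.1 in SMARCB1 DMSO and 29.4, 18.4 and 27.6 in SMARCB1 dBRD9-A. On chromosome 7, from 105416495 to 105416821, folds were 27.4, 21.97 and 24.1 in DMSO and 29.2, 20.3 and 31.1 in dBRD9-A. A member on chromosome 13, from 32716992 to 32717371, had folds of 21.8, 23.2 and 27.5 in DMSO and 24.2, 23.2 and 23.2 in dBRD9-A. In each of these regions the treatments overlapped.

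The other 6 of the 10 strongest members had median folds between 22.2 and 24.0. On chromosome 8 they lay at 142635170 to 142635499, 32820865 to 32821172 and 93770529 to 93770856. The remaining ones were one on chromosome 6 (83627105 to 83627502), one on chromosome 5 (141603298 to 141603507) and a 530 bp region on chromosome 11 (103452487 to 103453016). The chromosome 11 region was the most remote of the 10, at 472072 bp from a constitutive region, and had 5 other members within 100 kb. For 5 of the 10 strongest members the distance to a constitutive region was between 100094 and 116869 bp, not far inside the limit.

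The 3 members farthest from constitutive chromatin had mean fold percentiles of 40.8, 51.1 and 70.4, against a median of 59.8 over all members. The first, on chromosome 4 from 62372077 to 62372382 and 4163636 bp away, had folds of 3.64, 7.65 and 4.58 in SMARCB1 DMSO and 5.48, 10.8 and 3.60 in SMARCB1 dBRD9-A. On chromosome X, 95939639 to 95939909 had folds from 3.81 to 12.2 (median 6.99) and 96144703 to 96145033 folds from 6.36 to 13.5 (median 9.46). The treatments overlapped in all 3 regions, whose summits rested on at most 15 fragments.

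Whether a further library finds these regions was asked by leaving each list out of the choice. Regions were called remote or near gained from the other 11 lists, and the share with a peak in the list left out was taken. For SMARCB1 DMSO replicates 1, 2 and 3 it was 91.6%, 94.5% and 90.9% of the remote regions, and for SMARCB1 dBRD9-A 96.0%, 82.9% and 93.8%. For GFP DMSO replicates it was 1.89%, 0.743% and 0.784%, and for GFP dBRD9-A 0.331%, 0.499% and 2.19%. Between 3925 and 4846 regions stood behind each share, and no library of one induction came near those of the other.

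In SMARCB1 libraries the shares of remote and near gained regions found again differed by less than the spread between libraries. The share was 91.6% ± 4.66 for remote and 91.8% ± 4.45 for near regions (SD, n = 6), a paired difference of −0.156 percentage points (two-sided exact sign-flip permutation p = 0.594, adjusted p = 0.95). The 6 differences ran from −1.05 to 0.533 points. With the limit at 200 kb the difference was −0.785 points (exact p = 0.0313, not adjusted).

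In each GFP library the share was lower for the remote than for the near regions, with an adjusted p that missed 0.05. By rule, remote regions lay over 100 kb from regions found in all the other lists, GFP lists included. The direction is therefore not independent of the choice, and the test does not measure it apart from the choice. The share was 1.07% ± 0.773 for remote and 2.41% ± 1.70 for near regions (SD, n = 6), and the difference of −1.34 points had the same sign in 6 of 6 libraries (exact sign-flip permutation p = 0.0313, the smallest possible; adjusted p = 0.0625). Differences ran from −3.35 points in GFP dBRD9-A replicate 3, the GFP library with the longest list, to −0.647 points in GFP dBRD9-A replicate 1, the one with the shortest. Without GFP dBRD9-A replicate 3 the mean difference was −0.938 points.

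**Figure D4:**
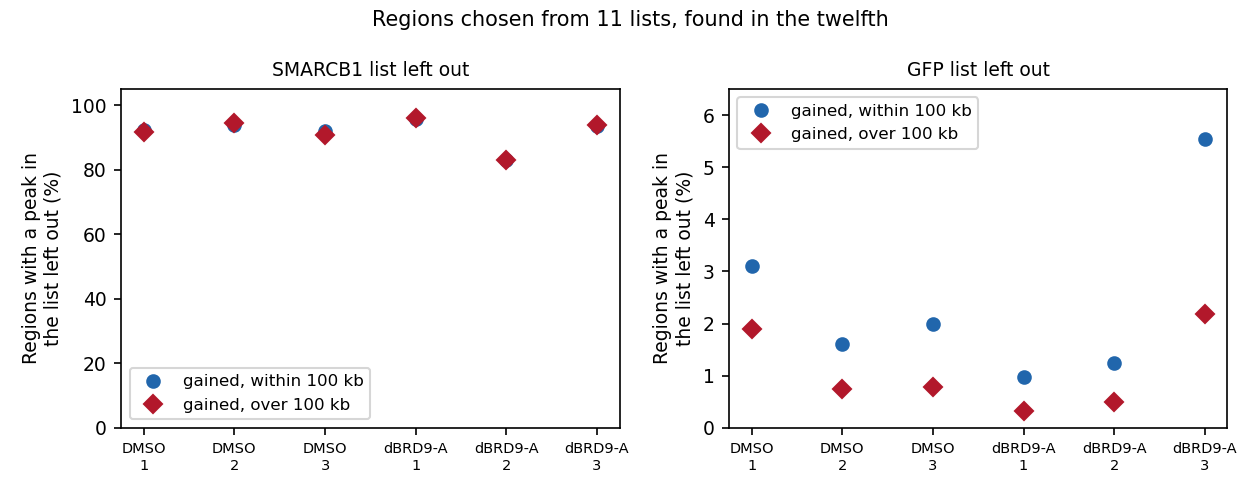
Percent of gained regions, chosen from 11 lists, that had a peak in the list left out (vertical axes, of different scale), for each SMARCB1 library (left) and each GFP library (right). Remote gained regions were found in 82.9% to 96.0% of cases in SMARCB1 libraries and in 0.331% to 2.19% in GFP libraries, where they lie below the near gained regions each time.

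The last comparison asked how BRD9 degradation bears on the remote gained regions in cells with SMARCB1. The rule kept regions present under both treatments, so retention was read from the lists left out. The share was 92.3% ± 1.90 in SMARCB1 DMSO and 90.9% ± 7.02 in SMARCB1 dBRD9-A libraries (SD, n = 3 each), a difference of −1.42 points (two-sided exact permutation of 3 against 3, p = 0.9; adjusted p = 1). By replicate number the difference was 4.42, −11.6 and 2.90 points, and without SMARCB1 dBRD9-A replicate 2 it was 2.58 points. The design cannot give a p below 0.1.

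Height, too, differed by less than the spread between libraries. The median fold percentile of the members was 63.6 ± 1.89 in DMSO and 63.1 ± 6.82 in dBRD9-A libraries (SD, n = 3 each), a difference of −0.576 (exact permutation p = 1, adjusted p = 1). By replicate number it was 5.07, −9.99 and 3.19, and without SMARCB1 dBRD9-A replicate 2 it was 3.36 (exact p = 0.2). For near gained regions the differences by number were 4.67, −9.95 and 3.48.

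Single regions were tested with limma on log2 fold over all 39492 regions present in the 6 SMARCB1 lists, each library centred on its median. The main fit did not use replicate numbers. After Benjamini-Hochberg adjustment limma called 0 of the 4084 members, as it called 0 of all regions tested (0% of them). The lowest adjusted p was 1. A count of 0 does not show that heights were alike, since on data simulated with known changes the same fit recovered only a part of them. At an unadjusted p under 0.05 limma had 61 members higher and 63 lower with dBRD9-A, 1.49% and 1.54% of the members, against 1.46% and 1.32% of all regions tested. When replicate numbers entered limma as a block, the adjusted calls stayed at 0 (lowest adjusted p 0.338) and an unadjusted p under 0.05 was more frequent among members (271 of 4084, in place of 124) and among all regions tested (2254 of 39492, in place of 1101) alike.

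Each library was centred on its median over all regions tested, so a shift shared by all regions cannot show. On that scale the members as a set lay near no difference. Their median log2 difference was −0.0125, with 90% of them between −0.474 and 0.469, and the median over all regions tested was 0.00348. All 3 dBRD9-A libraries were above all 3 DMSO libraries at 159 members (3.89%) and below them at 142 (3.48%); over all regions tested the shares were 4.06% and 3.86%. The median standard error of a member's log2 difference was 0.315, against 0.280 over all regions tested.

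**Figure D5:**
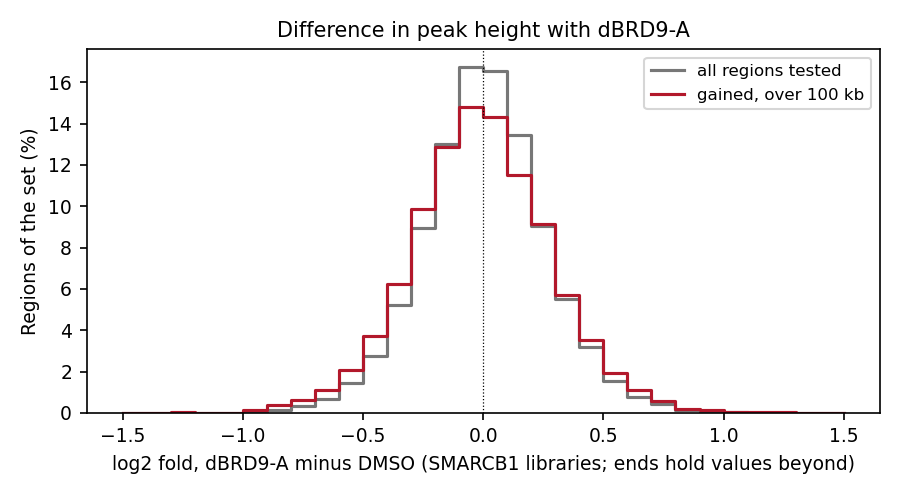
Percent of regions (vertical axis) by difference in log2 fold between dBRD9-A and DMSO in SMARCB1 libraries (horizontal axis, steps of 0.1), for the 4084 remote gained regions and all 39492 regions tested. Each library was centred on its median over all regions tested, so a shift shared by all regions cannot show. On that scale both curves centre near 0, with medians of −0.0125 and 0.00348.

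The members of lowest unadjusted p are given with their values. On chromosome 2, from 153916293 to 153916470, folds were 3.71, 3.73 and 4.58 in DMSO and 10.5, 9.09 and 8.88 in dBRD9-A, a log2 difference of 1.26 ± 0.310 (SE; limma adjusted p = 1). The summits held 3 or 4 fragments in DMSO and 9 to 11 in dBRD9-A. On chromosome 15, from 57323954 to 57324154, folds were 12.2, 7.44 and 10.7 in DMSO and 5.38, 2.86 and 4.50 in dBRD9-A, a log2 difference of −1.26 ± 0.323 (SE; limma adjusted p = 1). Groups did not overlap in either region, and neither passed the adjusted threshold.

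The next 2 of higher fold were on chromosome 1 (221342955 to 221343224, log2 difference 1.18) and chromosome 18 (37350413 to 37350631, 1.0), the latter 1991673 bp from a constitutive region. The next 2 of lower fold were on chromosome 7 (96292879 to 96293025, −0.94) and chromosome 17 (64935930 to 64936197, −0.92). All 4 had an adjusted p of 1 in limma.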

How the data were processed

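The authors deposited 1 peak list per library, called on nucleosome-free fragments. Per the submitters' processing notes the build was hg19 and the tools were BWA 0.7.12-r1039, SAMtools 1.2, bedtools 2.24.0, MACS2 2.1.1.20160309, DiffBind and DESeq2, with no role or setting given. Each deposited list gives a fold over background (a ratio with a pseudocount of 1), the −log10 of p and q, and a score, by the authors' peak caller; the lowest −log10 q was 1.30. The score was not used. Each peak's summit offset, in bp, was used as deposited. The filter behind the deposited lists is not given in the sources used here.

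Peaks of the 12 lists were merged at 1 bp of overlap (Python 3.11.15, numpy 2.4.6, pandas 2.3.3, scipy 1.17.1). A region's value in a library was that of its highest peak. The summit pileup was solved from fold and −log10 p, within 0.001, for 99.99% or more of the peaks of each list. Background pileup is the 1st percentile over a list. Library measures were compared by two-sided exact permutation, adjusted over 8 tests by Benjamini-Hochberg, and regions by limma 3.58.1 in R 4.3.3 with no filter beyond presence. Scripts were tested on simulated data.

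Named regions are the 10 members of highest mean percentile, the 3 farthest, 2 to each side of the limit, the 3 gaps with most members and, as limma called none, the 3 of lowest p in each direction. The members, rules and tests were chosen with earlier results of these data known. In SMARCB1 libraries the deviations of same-numbered libraries from their group means correlated at 0.116, 0.267 and 0.372 over regions in replicates 1, 2 and 3, so the numbers were taken to pair them. The main dBRD9-A tests did not use this pairing. It entered only as an alternative, the replicate block. Gene, promoter and motif context was planned and not run, since no genome or annotation of hg19 was used here.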

Additional observations from a re-analysis of the deposited data

Results flagged for a closer look

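Chance flags about 1 in 20 such groups, and 14 groups of 6 libraries were looked at. In SMARCB1 dBRD9-A replicate 2 the median width of the remote gained regions was 165 bp, apart from the 189 bp or more of the other 5 SMARCB1 libraries. It was the shallowest SMARCB1 library, with a background pileup of 0.0487, and its near gained regions were also the narrowest, at 158 bp; the part of depth was not tested. Among GFP libraries left out of the choice, GFP dBRD9-A replicate 3 stood apart, with a difference of −3.35 percentage points between the shares of remote and near gained regions found again. It had the longest GFP list, 50089 peaks, and the part of list length was not tested.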

How the results depend on the processing

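Apart from leaving out libraries, 55 values were computed under other settings: 43 neither changed sign, crossed the threshold nor, for a count, moved by over 1.5 times. Some of these could not have crossed it, as the dBRD9-A tests of 3 against 3 libraries cannot give a p below 0.1. Others left out only the 1 member of identical edges. There were 6624 members with a limit of 50 kb, 1940 with 200 kb and 2672 where −log10 q had to reach 5. With that q the height difference between remote and near regions was −0.628, that of the summit offset 0.833 bp, that of the share found again in SMARCB1 libraries 0.00903 points and the effect of dBRD9-A on the share of far peaks −0.449 points. With 50% cover the height difference was −0.301, and as summit pileup −1.17 fragments, chosen after seeing the data (exact p = 0.0625). With a limit of 200 kb the height difference was −3.72, that of the summit offset 2.33 bp, that of the width 4 bp and that of the share found again −0.785 points; with 50 kb the latter was 0.0781 points. The causes were not tested.

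With 1 library left out, 5 libraries cannot give a sign-flip p below 0.0625. Members then numbered 3925 to 4846, and 4846 without SMARCB1 dBRD9-A replicate 2. The remote minus near difference ran from −2.38 to −2.01 percentiles in height, 5.40 to 6.60 bp in width, 1.40 to 1.60 bp in summit offset, −0.294 to 0.0222 points in the share found again in SMARCB1 and −1.48 to −0.938 points in GFP libraries. The dBRD9-A differences ran from −2.74 to 3.36 percentiles in height, −3.98 to 2.58 points in the share found again and −0.493 to 0.602 points in the share of far peaks, so that their signs rest on single libraries. They turned in height without SMARCB1 DMSO replicate 2 (0.199) and without SMARCB1 dBRD9-A replicate 2 (3.36). The share of far peaks turned without GFP DMSO replicate 3 (−0.215), SMARCB1 DMSO replicate 1 (−0.0595), GFP dBRD9-A replicate 3 (−0.493) and SMARCB1 dBRD9-A replicate 3 (−0.147).

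With the replicate block the dBRD9-A differences were the same, −0.576 percentiles, −1.42 points and 0.130 points, with exact p of 1, 1 and 0.938; for the first and second of these, 3 pairs cannot give a p below 0.25. The pairing changed no adjusted call. limma called 0 members under each of the 11 alternatives run. In some SMARCB1 list 49.0% of the members had under 5 fragments at the summit; the part of depth in the heights was not tested.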

Other observations

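Among the 10 gaps with most members, the densest was chosen after its values were seen. It lies on chromosome 20 from 46292838 to 47237031, is 0.944 Mb long and holds 17 members, 22.8 per Mb of its far part, at a median spacing of 33330 bp. GFP libraries had 3 to 11 peaks in it (median 5.5) and SMARCB1 libraries 42 to 67 (median 57.5). The longest of the 10, of 7.72 Mb on chromosome 13 from 80055610 to 87776272, held 19 members at 2.53 per Mb, with mean fold percentiles from 20.3 to 84.6. GFP libraries had 6 to 19 peaks there and SMARCB1 libraries 53 to 91.

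A median percentile of 55.0 on chromosome X and 49.6 on chromosome 22 put the members there below those of chromosome 17, at 66.6, and chromosome 19, at 63.8. The number of members behind these medians was 87, 29, 56 and 15. These chromosomes are the ends of the order, and others lay close to chromosome X. Chromosome 16 had a median of 55.1 over 77 members and chromosome 20 one of 55.9 over 70.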
